A study of Mus musculus with 20 samples.

Results

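*Ly6a*, *Ly6e*, *Ly6c1* and *Ly6c2* encode small surface proteins of the Ly6 family, and these 4 genes were taken by name from the 13798 genes of a single-cell RNA-seq matrix of mouse follicular T cells. Their levels were followed in 6 cell clusters, in each of 10 mice and in relation to interferon-induced genes within single cells. The rule names the genes and uses no measured value, but it was set with earlier results of these data known. The cells were sorted from spleens of C57BL/6 bone marrow chimeras as CD3+ and CD4+ T cells with CXCR5 and PD-1 on their surface, and only cells positive for CD45.2 and negative for CD45.1 were kept. All recipients had been irradiated. In 5 WT chimeras (mice 11, 12, 14, 23 and 36) the marrow was congenic wild type, and these mice were given NP-OVA in alum at week 6, which provides germinal centers against a foreign antigen. The study's methods also describe a later booster of NP-OVA, which the labels do not mention, so the time from last immunization to sacrifice is uncertain. In 5 564Igi chimeras (mice 13, 17, 21, 24 and 34) wild type marrow was mixed with marrow of 564Igi mice, a knock-in line in which both chains of the B cell receptor come from a clone that binds self ribonucleoprotein. These chimeras were not immunized. The labels place the sacrifice of both groups at week 10 after irradiation, so effects of immunization and of the marrow cannot be told apart. The ages of recipients are not in the labels. As the marrow was mixed, which donor gave rise to a 564Igi chimera's T cells is not shown by these data.

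Ly6 proteins are held on the outer face of the cell membrane by a glycosylphosphatidylinositol (GPI) anchor, have a compact fold built around disulfide bonds, and are encoded side by side in a gene cluster. *Ly6a* encodes Sca-1, which is used to sort haematopoietic stem cells and is raised on lymphocytes by interferons and by activation. *Ly6e* encodes a widely expressed and interferon-inducible member that is known from developing T cells and from work on virus entry. *Ly6c1* and *Ly6c2* encode the closely related antigens called Ly6C, which are used as markers of monocytes and of memory T cells. Follicular helper T (Tfh) cells help B cells in germinal centers, while follicular regulatory T (Tfr) cells, most of which express the transcription factor Foxp3, restrain that help.

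All 4 genes lie on chromosome 15 (GRCm38, GENCODE annotation), none of them overlapping another annotated gene. *Ly6e* spans chr15:74955051-74959905 on the forward strand. *Ly6a* spans chr15:74994877-74998031, *Ly6c1* chr15:75044018-75048830 and *Ly6c2* chr15:75108158-75111970, all on the reverse strand. The first 150 coding bases of the 3 genes on the reverse strand are shown because their likeness limits how well reads can be told apart. Capitals mark, in *Ly6a*, the 14 bases that differ from *Ly6c1* and, in *Ly6c1* and *Ly6c2*, the 6 bases that differ between that pair.
Ly6a: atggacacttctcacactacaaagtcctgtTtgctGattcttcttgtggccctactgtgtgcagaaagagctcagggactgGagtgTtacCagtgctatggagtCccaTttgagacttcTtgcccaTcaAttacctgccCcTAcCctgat
Ly6c1: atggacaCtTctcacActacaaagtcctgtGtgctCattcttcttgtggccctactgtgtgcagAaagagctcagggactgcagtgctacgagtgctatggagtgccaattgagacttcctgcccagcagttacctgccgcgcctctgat
Ly6c2: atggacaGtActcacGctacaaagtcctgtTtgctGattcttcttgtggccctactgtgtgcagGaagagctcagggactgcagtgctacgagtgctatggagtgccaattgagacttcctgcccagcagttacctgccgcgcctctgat

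Over the whole coding sequence *Ly6c1* and *Ly6c2* differed at 9 of 393 bases (97.7% identity), whereas *Ly6a* was 82.6% identical to *Ly6c1* and 55.7% identical to *Ly6e*. Exact stretches of 40 bases or more that occur in another gene's transcript covered 84.2% of the 844 bases of the *Ly6c1* transcript and 78.5% of the 822 bases of *Ly6c2*. They covered 33.5% of the 819 bases of *Ly6a*, shared with *Ly6c1*, *Ly6i* and *I830127L07Rik*, and 1.97% of the 2281 bases of *Ly6e*. Counts of *Ly6c1* and *Ly6c2* are therefore uncertain as to which of the pair gave them, a smaller part of *Ly6a* is exposed to the same ambiguity, and *Ly6e* is largely free of it.

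The matrix held 28192 cells, 14965 from WT and 13227 from 564Igi chimeras, with 1121 to 4030 cells and 3424280 to 15241983 UMIs (unique molecular identifiers, which count RNA molecules) per mouse. Of all barcodes, 485 occurred in 2 libraries and 6 in 3 or more, and 0 pairs of mice had identical values. The authors' cluster names stood against their defining genes as follows. *Foxp3* was found in 56.7% of cells of the Tfr cluster and 7.19% of the activated Tfh cluster, *Sostdc1* in 100% of the Sostdc1 cluster, *Gzmk* in 86.7% of the effector cluster and *Ifit1* in 88.7% of the interferon stimulated cluster. The central memory cluster had *Sox4* in 70.1% of its cells but *Cd4* in 33.4%, against 59.0% or more in each other cluster. The listed genes of activated Tfh cells did not set that cluster apart from the Sostdc1 cluster. *Tnfsf8* was found in 63.4% of activated and 76.5% of Sostdc1 cells, and *S100a6* in 75.8% and 74.6%. The interferon stimulated cluster also had *Foxp3* in 25.9% of its cells. Levels are given as the mean over a mouse's cells of log2(normalized UMI count + 1), where the count is the depth-corrected count that the authors deposited, and a gene is found in a cell that has at least 1 such count. The authors normalized the cells of each condition separately, so a shift of a gene's level in that step cannot be told apart from a difference between conditions. The median difference of all genes tested was -0.0018 on the log2 scale, which says nothing of single genes.

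*Ly6a* and *Ly6e* were widely found and the other two members were rare. *Ly6e* was found in 96.4% of all cells and *Ly6a* in 63.9%, whereas *Ly6c2* was found in 234 cells (0.83%) and *Ly6c1* in 14 (0.0497%). Counts are taken from the 5′ end of transcripts, and levels are compared here within a gene. Because clusters were made from these same values, differences between clusters are described without a test.

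*Ly6a* was highest in the interferon stimulated Tfh cluster, with a mean level of 2.95 ± 0.31 (SD, n = 8 mice with at least 20 cells), and lowest in the central memory cluster at 0.26 ± 0.22 (SD, n = 8). Between them stood activated Tfh cells at 1.71 ± 0.26, Sostdc1 Tfh cells at 1.55 ± 0.22, Tfr cells at 1.36 ± 0.51 and effector Tfh cells at 0.68 ± 0.19 (SD, n = 10 each). With both conditions pooled, neighbours from activated through Sostdc1 to Tfr lay within 1 SD of each other. The gaps above activated and below Tfr cells were larger than the SD of either neighbour. By condition, the means of activated, Sostdc1 and Tfr cells were 1.58, 1.40 and 0.93 in WT mice. In 564Igi mice they were 1.85, 1.69 and 1.78, so Tfr cells stood below Sostdc1 cells in WT mice only. Across mice the Tfr cluster had the widest range of *Ly6a*, from 0.52 to 1.94. *Ly6e* had another order. It was again highest in interferon stimulated cells (3.40 ± 0.16, n = 8), but Tfr cells came next (3.20 ± 0.12, n = 10), followed by activated (2.55 ± 0.10), Sostdc1 (2.45 ± 0.14), central memory (1.79 ± 0.28, n = 8) and effector cells (1.71 ± 0.20). For *Ly6e*, activated and Sostdc1 cells differed by less than the SD of Sostdc1 cells, and central memory and effector cells by less than the SD of either.

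**Figure D1:**
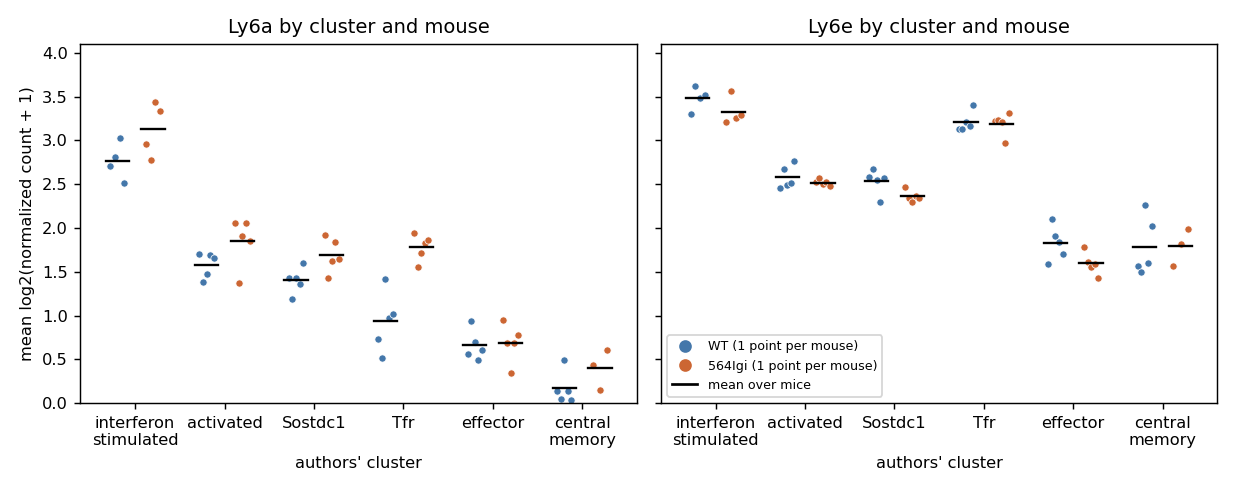
Mean log2(normalized count + 1) of *Ly6a* and *Ly6e* per mouse in the 6 clusters, with 1 point for each mouse with at least 20 cells and bars at the group means. *Ly6a* of WT and 564Igi mice separates in the Tfr cluster, while *Ly6e* overlaps there, and both genes are highest in the interferon stimulated cluster.

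The comparison of 564Igi with WT chimeras asks how an autoreactive B cell clone goes along with the state of follicular T cells. *Ly6a* was higher in Tfr cells of every 564Igi mouse than in any WT mouse. In WT mice 11, 12, 14, 23 and 36 the mean level of *Ly6a* in Tfr cells was 0.74, 0.52, 1.42, 0.98 and 1.02. In 564Igi mice 13, 17, 21, 24 and 34 it was 1.94, 1.55, 1.71, 1.83 and 1.86. The groups did not overlap, but WT mouse 14 at 1.42 stood close to 564Igi mouse 17 at 1.55. Means were 0.93 ± 0.34 and 1.78 ± 0.15 (SD, n = 5 each). The difference was 0.85 (SE 0.12, 95% interval 0.60 to 1.09) with a limma adjusted p of 0.00162 over 9994 genes, past the limits set for a call (adjusted p below 0.01 and a log2 difference above 0.2). Only 0.02% of the genes tested in Tfr cells were called, namely *Ly6a* and *Gm42031*, and 0.38% had every 564Igi mouse above every WT mouse. *Ly6a* ranked 2 by size of the difference and 3 by p. The call was lost without WT mouse 11 (0.80, limma adjusted p 0.0141) and without 564Igi mouse 24 (0.83, limma adjusted p 0.0219), while the difference stayed between 0.74 and 0.97 with any mouse left out. It was also lost when limma was run without its trend of variance on level (adjusted p 0.495) and when low genes were kept (adjusted p 0.132).

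The share of Tfr cells with *Ly6a* and the level in those that had it were both higher in 564Igi mice, without passing adjustment over 14 comparisons (*Ly6a* and *Ly6e* in all cells and 6 clusters). *Ly6a* was found in 37.5%, 26.7%, 64.1%, 45.9% and 46.2% of Tfr cells of WT mice 11, 12, 14, 23 and 36. In 564Igi mice 13, 17, 21, 24 and 34 the shares were 77.1%, 66.8%, 71.1%, 77.0% and 75.0%. All 564Igi mice lay above all WT mice, as they did for 0.27% of the genes tested. The mean share was 44.1% ± 13.7 for WT mice and 73.4% ± 4.44 for 564Igi mice (SD, n = 5 each, two-sided exact permutation test, p = 0.00794, the smallest p that 5 against 5 mice can give, adjusted 0.0556). With every cell thinned to 2000 normalized UMIs the shares were 37.0% and 64.9%, again with an exact permutation p of 0.00794 (adjusted 0.111). Among the cells in which *Ly6a* was found, its level averaged 2.09 ± 0.13 in WT mice and 2.42 ± 0.08 in 564Igi mice (SD, n = 5 each, exact permutation p = 0.00794, adjusted 0.111). Cells with 4 or more counts of *Ly6a* made up 19.4% of WT and 42.6% of 564Igi Tfr cells. As a level for cells with little *Ly6a* in the same libraries, the shares in the central memory cluster were 13.4% ± 15.7 (SD, n = 5) and 30.9% ± 18.7 (SD, n = 3), at a median of 4027 raw UMIs per cell against 3461 in the Tfr cluster. Shares of cells with a UMI include free RNA.

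Outside the Tfr cluster, differences in *Ly6a* between conditions did not pass the call. In activated Tfh cells the WT mice, in the same order, had levels of 1.70, 1.38, 1.47, 1.69 and 1.65. The 564Igi mice had 2.06, 1.37, 1.91, 2.05 and 1.85. Mouse 17 lay below every WT mouse and the other 4 lay above every WT mouse. The difference was 0.27 (SE 0.12, limma adjusted p 1), in a comparison that called 0.0101% of genes. In Sostdc1 Tfh cells the difference was 0.29 (SE 0.10, limma adjusted p 0.902, with 0.0202% of genes called). There, the share of cells with *Ly6a* averaged 65.7% in WT mice and 78.8% in 564Igi mice, with no overlap between mice, as for 0.273% of genes (exact permutation p = 0.00794, adjusted 0.0556, or 0.0238 and 0.111 with cells thinned). Its level in the Sostdc1 cells that had it was 2.13 and 2.14 (exact permutation p = 0.944). In the interferon stimulated cluster, over 4 mice of each condition, the difference was 0.36 (SE 0.15, limma adjusted p 0.998, with 0.0106% of genes called). It was 0.23 in central memory cells over 5 WT and 3 564Igi mice (limma adjusted p 0.556), and 0.35 without 564Igi mouse 17 or 0.12 without 564Igi mouse 24. In effector cells it was 0.03 (SE 0.08), where 0.0104% of genes were called, and its sign turned with single mice left out (-0.04 to 0.11). Over all cells of a mouse, WT levels were 1.16, 0.85, 1.43, 1.31 and 1.35. The 564Igi levels were 1.95, 1.42, 1.72, 1.89 and 1.84. Mouse 17 fell within the WT range and the others above it. The difference over all cells was 0.54 (SE 0.11, 95% interval 0.32 to 0.77, limma adjusted p 0.0776, with 0.01% of genes called).

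**Figure D2:**
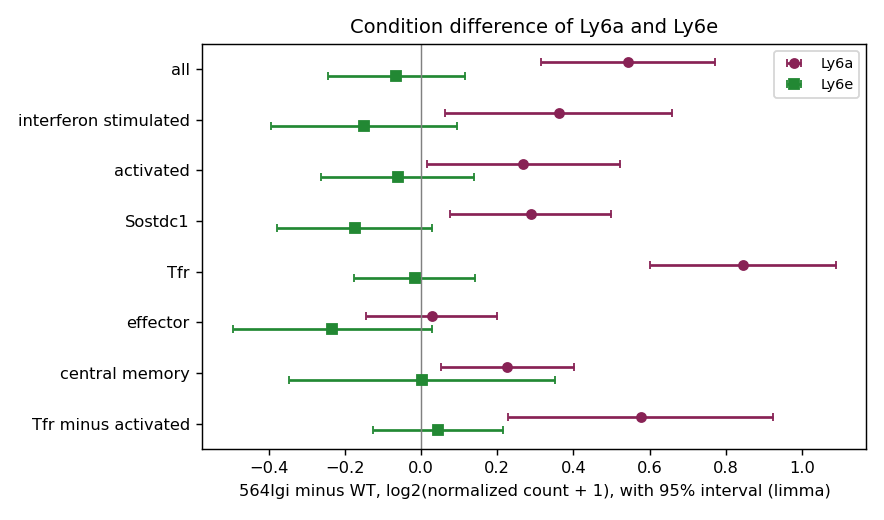
Difference of 564Igi minus WT chimeras in mean log2(normalized count + 1) of *Ly6a* and *Ly6e*, in all cells and in each cluster, with 95% intervals from limma. The *Ly6a* difference of 0.85 in the Tfr cluster is the one past the call, and every interval of *Ly6e* includes 0.

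The difference in *Ly6a* was itself larger in Tfr than in activated Tfh cells by the test of this 1 gene. In WT mice 11, 12, 14, 23 and 36 the Tfr level minus the activated level of *Ly6a* was -0.96, -0.87, -0.05, -0.72 and -0.63. In 564Igi mice 13, 17, 21, 24 and 34 it was -0.12, 0.19, -0.20, -0.23 and 0.01. In 4 of 5 WT mice Tfr cells thus held clearly less *Ly6a* than activated cells, and in 564Igi mice the 2 clusters were nearly level. Mouse 14 was the WT mouse without that gap. Means were -0.65 ± 0.36 and -0.07 ± 0.17 (SD, n = 5 each), a difference of 0.58 (two-sided exact permutation p = 0.0317). This was the largest difference of 9682 genes, but it did not pass limma over all of them (SE 0.16, 95% interval 0.23 to 0.93, adjusted p 0.503), a fit in which 0% of genes were called. For *Ly6e* the same difference between clusters was 0.04 (exact permutation p = 0.556).

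As *Foxp3* RNA is missed in many cells of a Tfr cluster, *Ly6a* was also compared with cells split by whether *Foxp3* was found, a split chosen after the data had been seen. Among the 6600 Tfr cells with *Foxp3*, *Ly6a* averaged 0.92 ± 0.37 in WT mice and 1.85 ± 0.12 in 564Igi mice (SD, n = 5 each, exact permutation p = 0.00794). Among the 5050 Tfr cells without it, the levels were 0.95 and 1.69 (exact permutation p = 0.0159). There WT mouse 14 and 564Igi mouse 17 both stood at 1.38, so the groups overlapped. The *Ly6a* difference was present on both sides of the split, and was 0.19 larger where *Foxp3* was found (exact permutation p = 0.0159).

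The activated cluster held 859 cells with *Foxp3*, 25 to 126 per mouse. In these the *Ly6a* level of WT mice 11, 12, 14, 23 and 36 was 1.16, 0.86, 1.26, 1.22 and 1.47. In 564Igi mice 13, 17, 21, 24 and 34 it was 2.13, 1.53, 1.68, 1.65 and 2.14. The lowest 564Igi mouse stood just above the highest WT mouse. In the whole activated cluster 0.264% of genes had every 564Igi mouse above every WT mouse. The share of genes that do so in these few cells was not computed. The means differed by 0.63 (exact permutation p = 0.00794, adjusted 0.0159 over the 8 splits compared). These splits share cells and mice, so the adjusted value does not rest on separate comparisons. In the 11094 activated cells without *Foxp3* they differed by 0.23 (exact permutation p = 0.151). The gap between these differences was 0.40 (exact permutation p = 0.0397). The share of Tfr cells with *Foxp3* itself was 56.5% in WT and 55.6% in 564Igi mice, and *Cd79a* and *Lyz2*, marks of B cells and myeloid cells, in 0.272% against 0.369% and 0.313% against 0.168%. Of the other B cell genes of the list, *Cd79b* was found in 6.25% and 4.68% and *Ms4a1* in 0.0513% and 0.0873% of Tfr cells. The part of such cells in the *Ly6a* result was not tested.

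**Figure D3:**
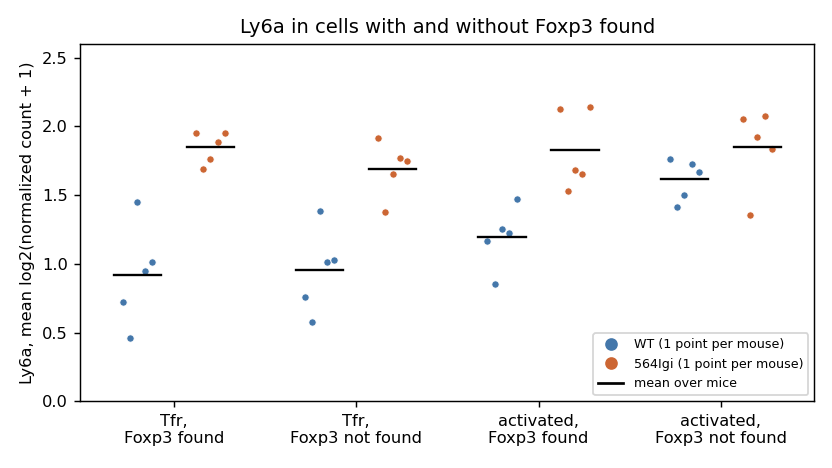
Mean log2(normalized count + 1) of *Ly6a* per mouse in Tfr and activated Tfh cells with *Foxp3* found or not found, WT and 564Igi chimeras, with 1 point per mouse and bars at means. WT and 564Igi mice separate in cells with *Foxp3* of both clusters and overlap in cells without it of both clusters. The share of all genes that separate in these splits was not computed.

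*Ly6e* did not follow *Ly6a*. In Tfr cells its level was 3.13, 3.13, 3.21, 3.16 and 3.40 in WT mice 11, 12, 14, 23 and 36. In 564Igi mice 13, 17, 21, 24 and 34 it was 3.22, 3.23, 3.21, 2.97 and 3.31. The groups overlapped. The difference was -0.02 (SE 0.08, 95% interval -0.18 to 0.14), an interval that does not reach the *Ly6a* difference. Its sign turned with some mice left out and with the alternative scale. In activated cells the difference was -0.06, over all cells -0.06 (SE 0.09), in effector cells -0.23 (SE 0.13) and in interferon stimulated cells -0.15, and 0 of these comparisons called *Ly6e*. In Sostdc1 cells it was -0.17 (limma adjusted p 1), where an exact permutation test of this gene alone gave p = 0.0397 (adjusted 0.139).

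Within single cells *Ly6a* was measured against a list of 44 genes known to be induced by type I interferon, such as *Ifit1*, *Isg15* and *Irf7*, summed on the log2 scale in each cell. Cells above their mouse's median of the list had more *Ly6a* than cells at or below it in Tfr cells of 10 of 10 mice. The difference was 0.34, 0.24, 0.36, 0.42 and 0.36 in WT mice 11, 12, 14, 23 and 36. It was 0.36, 0.50, 0.29, 0.53 and 0.36 in 564Igi mice 13, 17, 21, 24 and 34. The sizes of the 2 groups overlapped. The mean over mice was 0.38 (exact sign flip test, p = 0.00195, adjusted 0.00781). In activated cells it was 0.43, in 10 of 10 mice (exact sign flip p = 0.00195), and in Sostdc1 cells 0.41, in 9 of 10 mice (exact sign flip p = 0.00391). Cells high in the list also had more raw UMIs, with medians of 3838 against 3161 in Tfr cells. Taken within 5 bins of raw UMIs, the differences of *Ly6a* were 0.47, 0.39 and 0.39 in activated, Tfr and Sostdc1 cells. For *Ly6e* the list-high cells were higher by 0.25 in Tfr (10 of 10 mice), 0.16 in activated (9 of 10) and 0.12 in Sostdc1 cells (8 of 10, exact sign flip p = 0.00977). Exact permutation p for a gap between conditions in these within-mouse differences ran from 0.0714 to 0.476 over both genes and the 3 clusters.

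In Tfr cells the condition difference of *Ly6a* was of like size in cells low and high in the type I interferon list. A median of 7 list genes was found per Tfr cell. With Tfr cells split at the median of the list over the whole cluster, list-low cells held *Ly6a* at a mean of 0.77 (WT) and 1.57 (564Igi), a difference of 0.80 (two-sided exact permutation p = 0.00794, adjusted 0.0159). List-high cells had 1.12 and 1.99, a difference of 0.88 (exact permutation p = 0.00794). In activated cells the differences were 0.25 and 0.33 (exact permutation p = 0.0952 and 0.119). By quartile of the list, *Ly6a* in WT Tfr cells went from 0.71 through 0.83 and 0.94 to 1.29. In 564Igi Tfr cells it went from 1.50 through 1.63 and 1.79 to 2.20. The lowest quartile of 564Igi cells thus stood above the highest quartile of WT cells in the mean. In mice, the lowest quartile held 1.72, 1.21, 1.37, 1.56 and 1.62 in 564Igi mice 13, 17, 21, 24 and 34, and 0.48, 0.36, 1.22, 0.75 and 0.74 in the WT mice. WT mouse 14 reached the level of 564Igi mouse 17 in that quartile. Sostdc1 cells had condition differences of 0.37, 0.45, 0.23 and 0.10 from the lowest to the highest quartile. The exact permutation p was 0.0238, 0.0317, 0.190 and 0.460, with as few as 10 cells of a mouse in the highest quartile. Whether the difference changed with the list there was not tested.

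**Figure D4:**
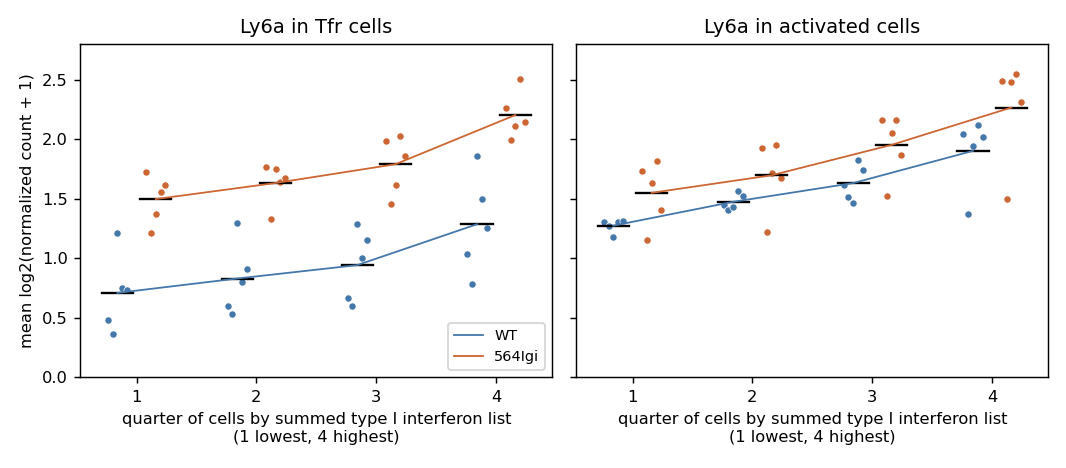
Mean log2(normalized count + 1) of *Ly6a* by quartile of the summed type I interferon list, in Tfr and activated Tfh cells. Each mouse is 1 point, and 1 line per condition joins the means over mice. The lines of means rise from the lowest to the highest quartile in both conditions, though single mice do not all rise at each step. In Tfr cells the 564Igi line lies above the WT line, while points of the conditions overlap in the lowest quartile.

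The type I interferon list itself did not differ between conditions by the exact permutation test. Its summed level in Tfr cells was 10.3 ± 1.04 in WT and 10.8 ± 0.99 in 564Igi chimeras (SD, n = 5 each, exact permutation p = 0.444), and p was 0.722 in activated and 0.627 in Sostdc1 cells. A list of 22 genes associated with interferon-gamma, which holds guanylate binding proteins, immunity-related GTPases and parts of antigen processing, had a summed level of 7.48 ± 0.67 and 8.50 ± 0.61 in Tfr cells (SD, n = 5 each, exact permutation p = 0.0317). In activated cells p was 0.151 and in Sostdc1 cells 0.556. With Tfr cells split by this list instead, a split added after the data had been seen, *Ly6a* differed between conditions by 0.76 in list-low and 0.82 in list-high cells (exact permutation p = 0.00794 for each). Activated cells split by it differed by 0.29 in list-low and 0.19 in list-high cells (exact permutation p = 0.0714 and 0.198).

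Gene by gene, 0 genes of either interferon list were called in Tfr cells or over all cells. Of all genes tested, 0.02% were called in Tfr cells and 0.01% over all cells, so 0 in lists of this size is close to that share. Of 41 genes of the type I list tested in Tfr cells, 4 were higher and 1 lower at an unadjusted limma p under 0.05, where 350 of all 9994 genes tested passed that p in either direction. The list's median difference was 0.0058 beside -0.0016 for all genes. The 3 with the highest difference were *Isg15* at 0.09, *Samhd1* at 0.07 and *Zbp1* at 0.06, and the lowest were *Slfn8*, *Ifi209* and *Slfn5* at -0.027 to -0.017. Of the 22 interferon-gamma associated genes, 9 were higher and 0 lower in Tfr cells at an unadjusted p under 0.05, 20 had a positive difference, and the median was 0.0228, set against the same 350 of 9994 genes. They were led by *Psmb8* at 0.15 and *Psmb9* at 0.12, subunits of the immunoproteasome, and the peptide transporter *Tap1* at 0.11, with *Gbp4*, *Gbp8* and *Nlrc5* lowest. Over all cells, where 318 of 9959 genes passed that p, the counts were 7 higher and 0 lower, and for the type I list 2 higher and 3 lower of 42 tested, where *Samhd1* stood at 0.12, *Isg15* at 0.07, *Isg20* at 0.05 and *Sp100* lowest at -0.06.

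Genes needed for the GPI anchor and other GPI-anchored surface proteins were examined beside *Ly6a*. Of 27 genes of anchor synthesis, 0 were higher and 0 lower at an unadjusted p under 0.05 in all cells or in Tfr cells, and their median difference was -0.0034 in each. With 318 of 9959 and 350 of 9994 genes past that p, a list of this size with 0 is close to the share of all genes. Of 10 other GPI-anchored proteins tested over all cells, 0 were higher and 1 lower at that level. This was *Thy1*, a GPI-anchored protein of all T cells, at -0.20 (limma adjusted p 1). In activated cells *Thy1* was 1.54, 1.53, 0.93, 1.36 and 1.33 in WT mice and 0.89, 1.29, 0.98, 0.95 and 0.84 in 564Igi mice. The groups overlapped through WT mouse 14 and 564Igi mouse 17, and the difference of -0.35 did not pass the call (limma adjusted p 0.87). In Tfr cells *Thy1* differed by -0.12 and *Cd52* by -0.10.

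Of 38 genes in a list of the Ly6 and uPAR family, 16 had a row in the matrix, and of these *Ly6a* and *Ly6e* were the 2 found in at least 1% of cells. *Ly6m* was found in 0.908%, *Ly6k* in 0.617%, *Ly6g6c* in 0.27%, *Lynx1* in 0.241% and *Ly6i* in 0.223% of cells. The 14 others were thus each found in fewer than 1 in 100 cells.

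**Figure D5:**
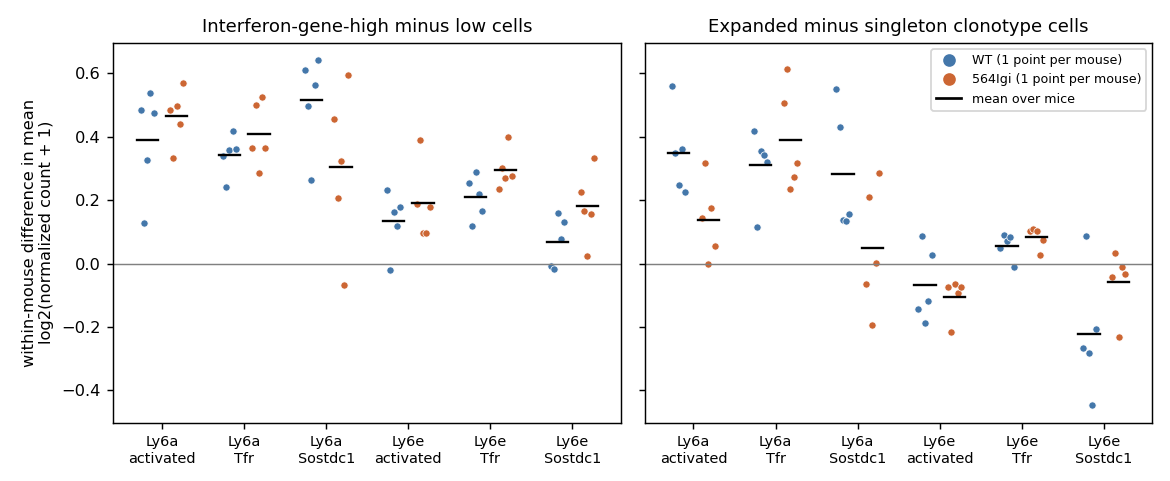
Within-mouse differences in mean log2(normalized count + 1) of *Ly6a* and *Ly6e*, between cells high and low in the type I interferon list and between cells of expanded and singleton clonotypes, per cluster, with 1 point per mouse. Points of *Ly6a* lie above 0 in nearly all mice, while *Ly6e* lies near or below 0 for clonotypes outside the Tfr cluster.

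The T cell receptor (TCR) of 21405 of the 28192 cells was known, which allowed cells of clonotypes seen in 2 or more cells of a mouse (expanded) to be set against cells of clonotypes seen once. In Tfr cells *Ly6a* was higher in expanded clonotypes in 10 of 10 mice. The difference was 0.42, 0.11, 0.35, 0.34 and 0.32 in WT mice 11, 12, 14, 23 and 36. It was 0.51, 0.61, 0.24, 0.27 and 0.32 in 564Igi mice 13, 17, 21, 24 and 34. The conditions overlapped. The mean of 0.35 exceeded 0 (exact sign flip p = 0.00195, adjusted 0.00781). In activated cells the difference of *Ly6a* was 0.24, in 9 of 10 mice (exact sign flip p = 0.00391, adjusted 0.00781), and in Sostdc1 cells 0.17, in 8 of 10 mice (exact sign flip p = 0.041). The last of these passed 0.05 only with most mice in, and p was 0.0664 to 0.082 when WT mouse 11, 12, 14, 23 or 36 or 564Igi mouse 17 or 34 was left out. *Ly6e* moved in opposite directions. In Tfr cells it was 0.07 higher in expanded clonotypes, in 9 of 10 mice (exact sign flip p = 0.00391), and in activated cells it was 0.09 lower, with 2 of 10 mice higher (exact sign flip p = 0.0215, adjusted 0.0322). The gap between these 2 clusters was 0.16, in 9 of 10 mice (exact sign flip p = 0.00586). For *Ly6a* the gap was 0.11, in 7 of 10 mice (exact sign flip p = 0.123).

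Genes whose level varied most like *Ly6a* between single cells were taken from the within-mouse Pearson correlation across cells, averaged over 10 mice. These values are descriptions, since cells of a mouse share a library and depth. In Tfr cells, among 7152 genes, the highest were *AW112010* (r = 0.27), an interferon-responsive transcript of lymphocytes, *S100a6* (0.262), a calcium-binding protein, and *Gimap7* (0.193), a GTPase of immune cells. They were followed by *Gimap4*, *B2m*, *H2-D1*, *S100a4*, *Cxcr3*, *Glrx* and *H2-K1*, of which *B2m*, *H2-D1* and *H2-K1* encode MHC class I. In activated cells *AW112010* (0.274) and *S100a6* (0.254) led again, followed by *Ms4a4b* (0.204), *Cxcr3*, *Gimap4*, *Itgb1*, *Itga4*, *Cd52*, *Anxa6* and *Emp3*. *Cxcr3* encodes a chemokine receptor of type 1 effector T cells, and *Itga4* and *Itgb1* the chains of an integrin.

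*Ly6e* varied most like *Shisa5* (0.349), *H2-D1* (0.296) and *AW112010* (0.293) in Tfr cells, followed by *Itm2b*, *H2-K1*, *Laptm5*, *Cd3g*, *Cd3d*, *B2m* and *Gimap7*. In activated cells the order was *H2-K1* (0.273), *H2-D1* (0.261), *Shisa5* (0.249), *Ltb*, *Itm2b*, *Cd52*, *AW112010*, *Cyba*, *H2-Q4* and *Asb2*. *Ly6a* and *Ly6e* correlated with each other at a mean r of 0.235 in Tfr and 0.275 in activated cells. With a cell's raw UMIs, *Ly6a* correlated at -0.0122 and -0.0139, and *Ly6e* at -0.196 and -0.167.

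The interferon-gamma associated list stood high among the correlates of *Ly6a*. Of its 20 genes found in at least 5% of Tfr cells, 17 were in the top 358 of 7152 genes, where 358 is 5% of all, as were 21 of 30 genes of the type I list. In activated cells 15 of 18 and 22 of 29 were in the top 350 of 6985. For *Ly6e* the counts were 7 of 20 and 16 of 30 in Tfr and 9 of 18 and 20 of 29 in activated cells. *Ly6a* had a mean r of 0.246 with the summed interferon-gamma list and 0.197 with the type I list in Tfr cells, while *Ly6e* had 0.129 and 0.178. None of the 10 genes nearest *Ly6a* in Tfr cells was called between conditions, and *S100a6* differed there by 0.27 (limma adjusted p 0.65).

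Over the 56 pairs of mouse and cluster with at least 20 cells, which share mice, *Ly6a* means followed those of *Slfn2* (r = 0.911), *Samhd1* (0.905), *Ifi27l2a* (0.901), *Cybb* and *Snx2* most closely. *Ly6e* followed *Ass1* (0.89), *Ctss* (0.887), *Itgb7*, *Ifi27l2a* and *Pck2*. *Slfn2*, *Samhd1* and *Ifi27l2a* are known as interferon-induced genes. *Ly6c2* means followed *Hdac9* (0.937), *Satb1* (0.935), *Rps6ka5*, *Dnah8* and *Tubb2b*, and *Ly6c1* means *Dapl1* (0.815), *Satb1* (0.698), *Stmn1*, *Otulinl* and *Smc6*, a ranking that rests on 14 cells.

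*Ly6c2* marked a minority of the central memory cluster. Of its 234 cells, 141 lay there, which were 19.4% of the 725 central memory cells, against 66 of 11953 activated and 12 of 11650 Tfr cells. In WT mice 11, 12, 14, 23 and 36 it was found in 25.4%, 25.8%, 14.3%, 30.1% and 12.6% of 185, 62, 42, 176 and 95 central memory cells. In 564Igi mice 13, 17 and 24 it was found in 9.52%, 1.20% and 10.3% of 21, 83 and 29 cells. Mice 21 and 34 had 19 and 13 such cells, below the minimum of 20, with *Ly6c2* in 1 and 0 of them. The 3 564Igi mice lay below every WT mouse, as they did for 1.46% of the genes tested in that cluster. The mean shares were 21.6% ± 7.72 (SD, n = 5) and 7.02% ± 5.06 (SD, n = 3), with an exact permutation p of 0.0357. With cells thinned to 2000 UMIs the exact permutation p was 0.0714. On the level scale the mice overlapped, and the difference of -0.23 (SE 0.07) did not pass limma (adjusted p 0.428), in a fit that called 0% of genes. Without 564Igi mouse 17 it was -0.15.

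The central memory cells with *Ly6c2* were like the rest of that cluster in the share with *Ly6a* (12.1% against 13.7%). *Klf2* (72.3% against 55.7%) and *Lef1* (83.0% against 73.1%), transcription factors of resting T cells, were found more often, *Nkg7* in 68.8% against 52.9%, and *Cd4* in 24.8% against 35.4%. These are shares of 141 and 584 cells from the same mice and carry no test. The 93 cells with *Ly6c2* in other clusters had another makeup. *Ly6a* was found in 80.6% of them and *S100a6* in 90.3%, against 65.2% and 71.3% of cells without *Ly6c2* outside the cluster. The myeloid genes *Lyz2* and *Csf1r* were found in 6.45% and 5.38% of these 93 cells, against 0.234% and 0.0365% of cells without *Ly6c2* outside the cluster. *Cst3*, the remaining myeloid gene of the list with a row, went the other way, in 37.6% against 46.2%. Since Ly6C is also a marker of monocytes, these values are set beside the count, and the part of myeloid cells or their RNA in it was not tested.

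*Ly6c1* was found in 14 cells, all of WT mice, of which 5 lay in the activated, 4 in the Tfr and 5 in the central memory cluster. It was 1 of 450 genes listed at 0 in all 564Igi cells, and 208 genes were listed at 0 in every WT cell. As genes were kept and normalized in each condition apart, a row of 0 in 1 condition is not read as an absence. *Ly6c1* and *Ly6c2* were found together in 4 cells.

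Promoter windows of RefSeq (GRCm38.p6), which span the start of a transcript, were searched on both strands for the core of the interferon-stimulated response element, GAAANNGAA, and for the gamma-activated site, TTCNNNGAA. These letters occurred in 8.56% and 8.30% of 32851 windows. In the 2 windows of *Ly6c1* and the 2 of *Ly6c2* there were 0 matches to either, which says only that these letters are not in those windows.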

How the data were processed

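Expression was measured in 10 RNA libraries, 1 per mouse, of 5 WT and 5 564Igi chimeras, with clonotypes from the paired TCR libraries. The authors aligned 5′ reads to GRCm38 (mm10) with Cell Ranger 4.0.0 and filtered cells in Seurat 3.1.4. For each condition separately they corrected UMI counts with sctransform, regressing out a heat shock score, UMI number and mitochondrial and ribosomal RNA content. They deposited the natural log of the corrected count plus 1. With the log undone, 100% of values were whole (tolerance 1e-06). Since these are not raw counts, no count model was fitted. The deposited cell table gives raw UMI counts, the percent of UMIs in mitochondrial genes, the heat shock score and the cluster names used here. Depth was 3424280 to 15241983 UMIs per mouse, and no doublet caller was run.

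Values were set to log2(count + 1) and averaged per mouse over all cells or over clusters with at least 20 cells. The filter kept genes with a count in 1% or more of the cells, in a number of mice no smaller than the smaller group. limma 3.58.1 (R 4.3.3) was run with its trend, p was adjusted after Benjamini-Hochberg, and calls needed an adjusted p below 0.01 and an absolute log2 difference above 0.2. The fit was tested on simulated data. Single values were compared by two-sided exact permutation over mice, and within-mouse differences by exact sign flips (Python 3.11.15, numpy 2.4.6, pandas 2.3.3). Named beside the members were the genes nearest to them by correlation (10 per cluster over cells, 5 over means) and, from each gene list, any called genes and the 3 highest and 3 lowest. Members and lists were chosen with earlier results of these data known. Alternatives covered the trend, filter, scale, depth, covariates (heat shock score, labelled sex), list, clone size and each mouse left out. Results for some genes are not reported here. Transcripts came from GENCODE and promoter windows from RefSeq, where 2 of 4 members matched.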

Additional observations from a re-analysis of the deposited data

Results flagged for a closer look

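Of 39 groups of mice tested for an outlying value, 2 were past Dixon's limit, where chance flags about 1 in 20. *Ly6a* in central memory cells of WT mouse 14 was 0.49, far above the other WT mice (gap over range 0.775). *Ly6e* in Tfr cells of 564Igi mouse 24 was 2.97, below the other 564Igi mice (0.716).

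Effects that differed between groups of cells were these. The *Ly6a* difference between conditions was 0.58 larger in Tfr than in activated Tfh cells (exact permutation p = 0.0317). It was 0.19 larger in Tfr cells with *Foxp3* found than in those without (exact permutation p = 0.0159), and 0.40 larger in activated cells with *Foxp3* found than without (exact permutation p = 0.0397). The difference in *Ly6e* between expanded and singleton clonotypes was 0.16 higher in Tfr than in activated cells, in 9 of 10 mice (exact sign flip p = 0.00586). That between cells high and low in the type I interferon list was 0.0914 higher in Tfr cells, in 8 of 10 mice (exact sign flip p = 0.0234).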

How the results depend on the processing

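Over 50 results and 519 alternatives, 498 kept their side of the threshold, 17 lost it, 3 gained it and 1 reversed. Of the 498, 14 turned sign with no call on either side, in *Ly6e* of Tfr and central memory cells and *Ly6a* of effector cells. The difference in *Ly6a* between conditions in Tfr cells kept its size but not its call without the limma trend (0.85, adjusted p 0.495) and with low genes kept (0.85, adjusted p 0.132); with mice left out it ranged from 0.74 to 0.97. On log2(mean count + 0.1) it was 1.13 (limma adjusted p 0.00332), and without mice 34 and 36, whose libraries are numbered apart, 0.85 (limma adjusted p 0.00638). In Tfr cells with none of the type I list found it was 1.25 (exact permutation p = 0.25), from 5 cells in all. In activated cells low or high in the list the *Ly6a* difference ranged from 0.18 to 0.36 and from 0.25 to 0.47 with mice left out, and without 564Igi mouse 17 both had an exact permutation p of 0.00794. The clonotype difference of *Ly6a* in Sostdc1 cells ranged from 0.12 to 0.20, and that of *Ly6e* from -0.17 to -0.11, lost without WT mouse 11, 14, 23 or 36 or 564Igi mouse 21. As a share of cells found, *Ly6e* in list-high minus list-low Sostdc1 cells reversed to -0.0992 percentage points (exact sign flip p = 0.887). Without WT mouse 14, the Tfr minus activated difference of *Ly6a* was 0.73 (limma adjusted p 0.0576). For the sparse *Ly6c1* and *Ly6c2* counting limits what can be seen. No paired analysis was possible because the WT and 564Igi chimeras share no mouse number. The causes of these changes were not tested.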
